A study of Mus musculus with 6 samples.

Results

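The 10 named genes of the heat shock protein and chaperone families, Hspa1a, Hspa1b, Hspa5, Hspa8, Hsp90aa1, Hsp90ab1, Hspb1, Hsph1, Dnajb1 and Hspd1, were followed in sorted mouse luminal mammary cells and in mammary tumors. A gene was measured through probe sets whose platform annotation names that gene and no other. This found 9 of the 10 genes, through 13 probe sets, among 22180 genes and 41345 probe sets in all. Hsp90ab1, which encodes the constitutive cytosolic HSP90, had no such probe set and was not analysed here. The wild-type group (K8wt, n = 3, replicates 1, 2 and 4) held YFP+ luminal cells of wildtype genotype, sorted from Rosa26-Stop-YFP females 10 to 14 days after Ad-K8-Cre. The tumor group (Brca1Tumor, n = 3, tumors 23, 24 and 25) held mammary tumors of Trp53L/L;Brca1L/L females, collected several months after the same virus, which the labels call null for Trp53 and Brca1. Ad-K8-Cre is an adenovirus that carries Cre recombinase under a keratin 8 promoter and was given into the ducts, so the wild-type cells carry virus and Cre exposure as well. The labels give no age, and only for the wild-type group do they mention sorting. The comparison therefore sets sorted cells against tumor tissue with its host cells, and genotype, malignancy, time after the virus and sorting cannot be told apart. Per the labels the wild-type samples came from different mice, but they do not say that the 3 tumors grew in 3 animals, so p-values may in part measure the spread between pieces of 1 animal.

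Molecular chaperones bind unfolded or partly folded proteins and help them to fold, to assemble or to be degraded. HSP70 proteins do so in cycles of ATP hydrolysis that are started by J-domain proteins such as Dnajb1 and reset by exchange factors such as Hsph1, while HSP90 takes over late folding steps of kinases and steroid receptors, small heat shock proteins hold clients without ATP, and the chaperonin Hspd1 encloses them in mitochondria. Cytosolic members are induced through the heat shock factor Hsf1, which binds inverted repeats of the letters GAA, whereas the endoplasmic reticulum member Hspa5 is induced by the unfolded protein response. Tissue dissociation is a known inducer of both heat shock genes and immediate early genes.

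All values are log2 expression values as RMA gives them, and differences are tumor minus wild type in log2 units with limma's moderated standard error (SE). A gene is said to have passed when its Benjamini-Hochberg adjusted p over the 22180 genes was under 0.05. Of all genes, 867 passed, 559 higher and 308 lower in tumors, which is 3.91% of those tested. The median difference was -0.12 for all genes and 0.32 for the brighter genes, those whose mean was 5 or more. As a mark of background, the 95th percentile of 1088 olfactory receptor genes lay between 3.69 and 3.85 on wild-type arrays and between 3.20 and 3.44 on tumor arrays, and all 9 measured chaperone genes lay above it on every array. Of 16 luminal markers 15 were measured, and each lay above the mark on at least 1 wild-type array, with Krt8 at 10.31 to 11.12 there. Skeletal muscle markers (12 genes, none called) averaged 3.44 to 3.68 on wild-type arrays, 8.47 and 5.75 on those of tumors 23 and 25, and 3.74 on that of tumor 24. Macrophage markers (12 genes, 7 rose, 58.3% against 2.52% of all genes) averaged 4.24 to 4.97 on wild-type arrays and 6.35 to 7.24 on tumor arrays. In such bulk samples fewer cells of a type and less RNA per cell cannot be told apart.

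The upstream sequences of the chaperone genes are given here because this gene family is known for heat shock elements before its start sites, and because those of the near-copies Hspa1a and Hspa1b can be compared base by base. For 7 of the 10 genes a sequence was held in the promoter table (RefSeq, build GRCm38.p6). The 250 bases before each annotated start were searched on both strands for a pair of heat shock element units, GAANNTTC or TTCNNGAA, which can overlap each other. A match was found for 5 of these 7 genes (Hspa1a, Hspa1b, Hspb1, Hsph1 and Hspd1), and in 12.8% of all 32851 windows of this length. The first count is by gene, where some genes have more than 1 window (10 windows in all). The second is by window, so they are not in the same unit. Dnajb1 had no match in any of its windows, and Hspa5 had none either. Capitals mark the matched letters, and every sequence runs 5′ to 3′ on the gene's own strand. The windows of the stress-inducible HSP70 pair, Hspa1a (chr17:34972157-34972406, minus strand) and Hspa1b (chr17:34959239-34959488, minus strand), differ at 3 of 250 bases, and that of the small heat shock gene Hspb1 (chr5:135887669-135887918, plus strand) holds 2 separate pairs.
Hspa1a: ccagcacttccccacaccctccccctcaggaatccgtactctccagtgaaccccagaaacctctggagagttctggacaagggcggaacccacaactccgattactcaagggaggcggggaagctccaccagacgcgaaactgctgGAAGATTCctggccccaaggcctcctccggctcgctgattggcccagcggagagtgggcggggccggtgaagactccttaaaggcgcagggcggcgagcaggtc
Hspa1b: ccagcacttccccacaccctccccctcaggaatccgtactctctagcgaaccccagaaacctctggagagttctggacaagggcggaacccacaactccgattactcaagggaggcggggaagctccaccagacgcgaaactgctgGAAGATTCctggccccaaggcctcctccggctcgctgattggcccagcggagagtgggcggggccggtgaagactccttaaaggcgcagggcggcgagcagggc
Hspb1: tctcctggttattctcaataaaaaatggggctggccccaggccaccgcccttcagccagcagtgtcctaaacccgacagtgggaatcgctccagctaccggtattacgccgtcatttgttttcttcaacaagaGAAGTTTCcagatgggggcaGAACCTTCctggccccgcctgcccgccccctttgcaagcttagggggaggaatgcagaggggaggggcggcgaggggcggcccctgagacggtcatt
For Hsph1 and Hspd1, whose windows can overlap a longer transcript of the same gene, 30 bases around the match are given (chr5:149636351-149636380 and chr1:55088053-55088082, both on the minus strand). The Hspd1 match is a run of overlapping pairs that holds TTC, GAA, TTC and GAA in a row, each 2 free bases apart. At least 3 such units in a row (GAA, TTC and GAA, or TTC, GAA and TTC) were found in 0.466% of all windows.
Hsph1: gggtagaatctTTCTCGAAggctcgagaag
Hspd1: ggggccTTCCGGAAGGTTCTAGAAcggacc
Hspa5 (chr2:34771840-34772089, plus strand) had no such pair. Its window holds an endoplasmic reticulum stress element, CCAAT and CCACG with 9 free bases between them, which 0.113% of all windows had.
Hspa5: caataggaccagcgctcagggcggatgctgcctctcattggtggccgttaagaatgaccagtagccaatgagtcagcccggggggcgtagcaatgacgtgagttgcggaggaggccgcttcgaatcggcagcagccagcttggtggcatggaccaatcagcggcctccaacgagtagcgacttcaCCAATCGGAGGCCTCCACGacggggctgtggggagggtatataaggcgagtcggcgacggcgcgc
These matches describe letters in the windows and are not measured binding sites.

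None of the 9 measured genes passed limma's test, against 3.91% of all genes (2.52% higher and 1.39% lower in tumors). At an unadjusted p under 0.05 there were 3 (Hspa1a, Hspb1 and Hsph1), where 26.4% of all genes lay under it. The arrays of the groups did not overlap for the same 3 genes, as for 36.4% of all genes: every tumor lay above every wild-type array for Hsph1, as for 14% of all genes, and below for Hspa1a and Hspb1, as for 22.4%. With 9 genes these shares lie near those of all genes and are no result about chaperones. What the data do give is each gene's level on its brightest probe set and limma's interval for its difference. That interval depends on the probe set and the scaling, and for Hspa8 it did not hold the differences of all its probe sets. It also takes the tumors as independent, which the labels do not state.

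**Figure D1:**
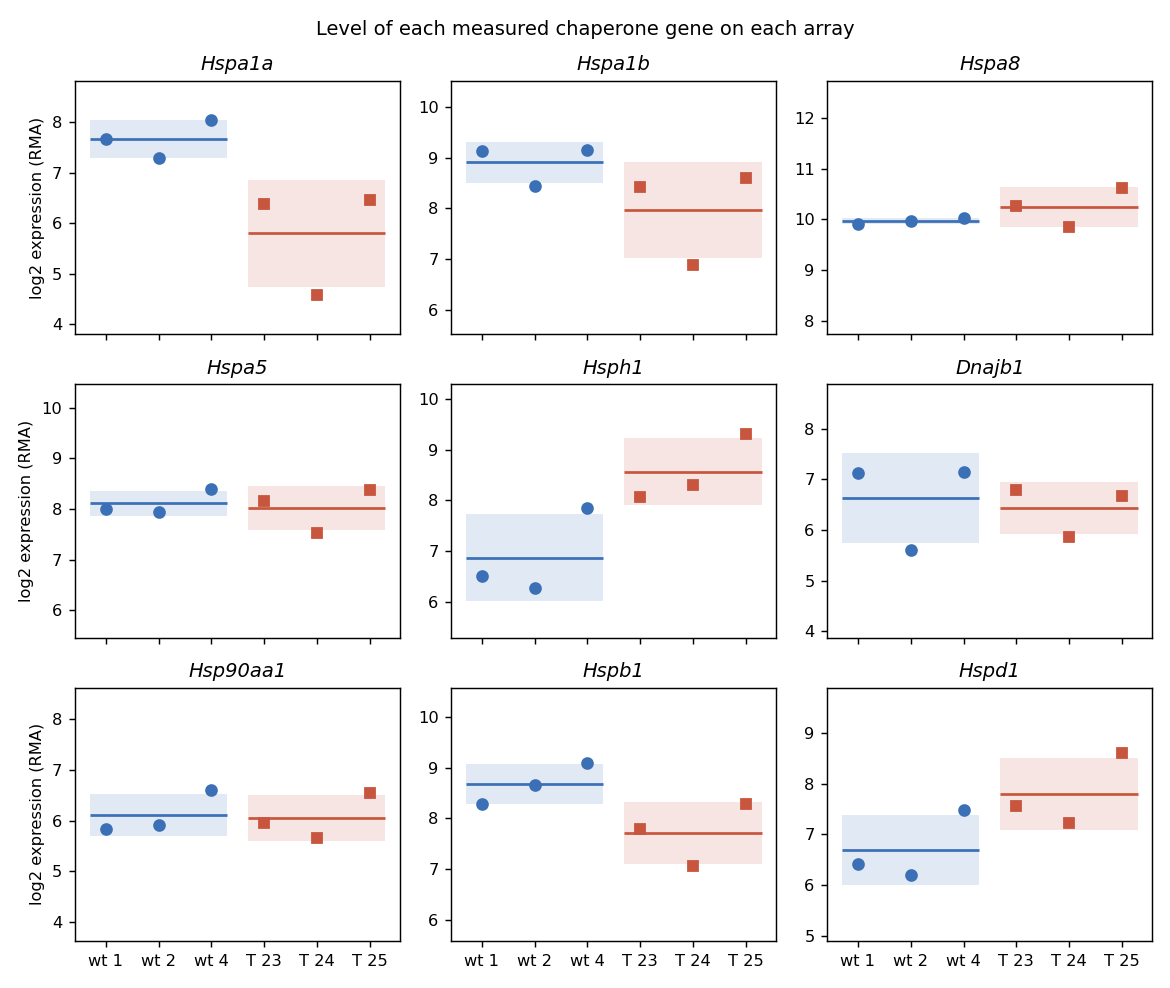
Log2 expression of the 9 measured chaperone genes (panels, each spanning 5 log2 units) on the arrays of wild-type replicates 1, 2 and 4 (wt, circles) and tumors 23, 24 and 25 (T, squares). Lines are group means and bands are ± 1 SD (n = 3). Tumor 24 is the lowest tumor in every panel but that of Hsph1, and wild-type replicate 4 is the highest wild-type array in every panel.

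Of the cytosolic HSP70 genes, the stress-inducible Hspa1a was the member furthest below 0. It measured 7.66, 7.28 and 8.04 in wild-type replicates 1, 2 and 4 and 6.38, 4.57 and 6.45 in tumors 23, 24 and 25. All tumors lay below all wild-type arrays, with tumor 24 far below the other tumors. The difference was -1.86 ± 0.53 (SE, n = 3 and 3), a 3.64-fold lower level, with a 95% interval from -3.13 to -0.59 and an adjusted p of 0.10. Without tumor 24 it was -1.25. The call depended on the genes tested and on scaling, with an adjusted p of 0.041 when only genes with a mean of at least 5 were tested and 0.0072 after centring on housekeeping genes. Its neighbour and near-copy Hspa1b measured 9.13, 8.45 and 9.16 in wild-type cells and 8.43, 6.88 and 8.61 in tumors. The groups overlapped, since tumor 25 lay above wild-type replicate 2. Its difference was -0.94 ± 0.49, with an interval from -2.11 to 0.23 and an adjusted p of 0.26, and without tumor 24 it was -0.40. After housekeeping centring it was -1.56 and passed (adjusted p of 0.029). The 2 coding sequences are nearly identical, so probes for 1 gene may take up transcript of the other, and how the difference divides between the genes is uncertain.

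Within each array, the probe sets of Hspa1a and Hspa1b did not keep 1 ratio. Hspa1a minus Hspa1b was -1.47, -1.17 and -1.12 in wild-type replicates 1, 2 and 4 and -2.05, -2.30 and -2.16 in tumors 23, 24 and 25, so every tumor lay below every wild-type array. The means were -1.25 ± 0.19 and -2.17 ± 0.13 (SD, n = 3), a shift of -0.92 that is larger than the spread within either group. The groups did not overlap when this quantity was chosen. A two-sided exact permutation test over the 20 splits of the arrays could then only give its smallest p, 0.10, and adds no support. Cyclic loess gave a shift of -0.98, and a repeated quantile normalization gave -0.95. This quantity was chosen after its values were seen. With 1 probe set for each gene, a shift between the genes and one between the probe sets cannot be told apart.

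The other HSP70 genes of the list differed less. Hspa8, the constitutive cytosolic HSP70 that also works in clathrin uncoating and in chaperone-mediated autophagy, measured 9.92, 9.96 and 10.03 in wild-type cells and 10.27, 9.84 and 10.63 in tumors through its brightest probe set. The wild-type arrays lay close together and the tumors spread to both sides of them. The difference was 0.28 ± 0.23, with an interval from -0.28 to 0.83. Hspa8 has 4 probe sets that name it alone, and they disagreed. Probe sets 17548379 and 17548744, with almost equal values to each other, were 1.63 ± 0.59 and 1.68 ± 0.58 lower in tumors, without overlap of the groups. On tumor 24 they measured 5.14 and 5.13, against 7.70 and 7.68 or more on wild-type arrays. The dimmest, 17434475, differed by -0.01 ± 0.42. None of the 4 passed when probe sets were tested singly (adjusted p of 0.14 to 0.99 in limma, where 3.64% of probe sets passed). The mean over the 4 probe sets gave -0.76 in place of 0.28, so the direction of Hspa8 is not settled by these arrays. Hspa8 is known to have many processed pseudogenes, and the files do not say where the probes lie.

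**Figure D2:**
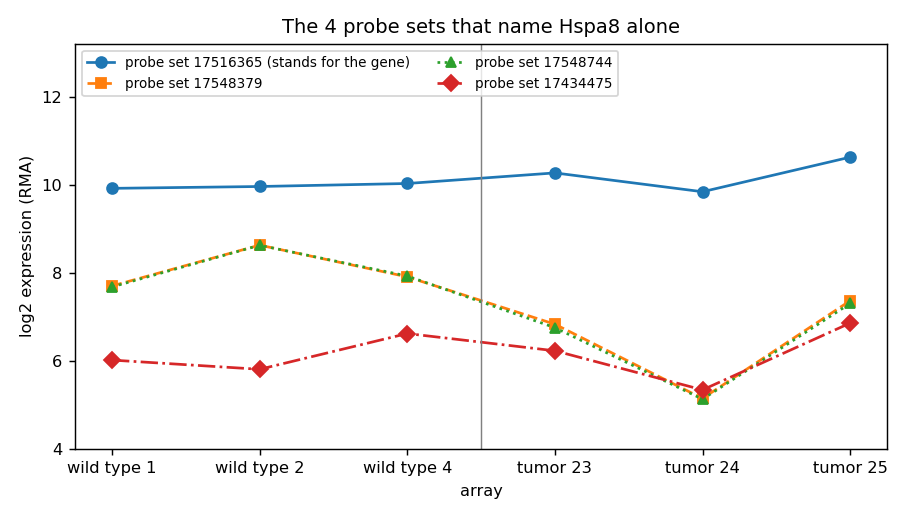
Log2 expression of the 4 probe sets that name Hspa8 alone on each of the 6 arrays, with lines that only join the values of 1 probe set. The brightest probe set runs from 9.84 to 10.63, while 17548379 and 17548744 lie together and are lower on every tumor array than on every wild-type array.

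Hspa5, also called BiP, is the HSP70 of the endoplasmic reticulum and holds the sensors of the unfolded protein response inactive. It measured 8.0, 7.93 and 8.39 in wild-type cells and 8.15, 7.53 and 8.38 in tumors. Tumors 23 and 25 lay inside the wild-type range and tumor 24 below it. The difference was -0.09 ± 0.27 (SE, n = 3 and 3), with an interval from -0.74 to 0.56 and an adjusted p of 0.84. Its sign turned without tumor 24 (0.16) and without wild-type replicate 4 (0.05).

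Of the genes that work with HSP70, Hsph1, a member of the HSP110 family and nucleotide exchange factor, was the member furthest above 0. It measured 6.50, 6.26 and 7.85 in wild-type cells and 8.07, 8.31 and 9.32 in tumors. Every tumor lay above every wild-type array, although tumor 23 exceeded wild-type replicate 4 by little. The difference was 1.70 ± 0.51, a 3.24-fold higher level, with an interval from 0.48 to 2.92 and an adjusted p of 0.11. It kept its direction without any 1 array (1.32 to 2.19) and was 1.08 after housekeeping centring. Dnajb1, the inducible HSP40 that stimulates the ATPase of HSP70, measured 7.13, 5.61 and 7.15 in wild-type cells and 6.78, 5.85 and 6.68 in tumors. Wild-type replicate 2 and tumor 24 were the low arrays, and the groups overlapped. Its difference was -0.19 ± 0.48, with an interval from -1.35 to 0.97 and an adjusted p of 0.80. Hspa1a, Hsph1 and Dnajb1 are known as targets of the same heat shock factor, and here their means lay below, above and near 0.

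Hsp90aa1, the inducible cytosolic HSP90, measured 5.83, 5.92 and 6.60 in wild-type cells and 5.95, 5.65 and 6.55 in tumors. The groups lay over each other, with 1 high array in each. The difference was -0.07 ± 0.32, with an interval from -0.82 to 0.69 and an adjusted p of 0.90, and its sign turned without tumor 24 (0.13) and without wild-type replicate 4 (0.17). In the endoplasmic reticulum its relative Hsp90b1, named here after its values were seen, was 1.10 ± 0.44 higher in tumors with an adjusted p of 0.18, and 0.67 higher without wild-type replicate 1.

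Hspb1, a small heat shock protein also known as HSP25 or HSP27, measured 8.29, 8.65 and 9.09 in wild-type cells and 7.79, 7.06 and 8.28 in tumors. The tumors lay below all wild-type arrays, tumor 25 by a narrow margin. The difference was -0.97 ± 0.36, a 1.96-fold lower level, with an interval from -1.83 to -0.10 and an adjusted p of 0.16. It was -0.64 without tumor 24 and -1.59 after housekeeping centring, where it passed (adjusted p of 0.016). Its other probe set, 17286958, measured 1.81 to 2.68 over all arrays, below the background mark, and adds nothing on its level. Luminal epithelial markers were lower beside Hspa1a, Hspa1b and Hspb1. Of the 15 measured, 3 fell (20%, against 1.39% of all genes) and none rose, with a median difference of -1.39. Their mean stood at 7.25, 6.42 and 6.68 for tumors 23, 24 and 25 and between 8.14 and 8.75 for the wild-type samples. Their part in the lower chaperone values was not tested.

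Hspd1, the mitochondrial chaperonin HSP60, measured 6.41, 6.19 and 7.48 in wild-type cells and 7.56, 7.23 and 8.60 in tumors. Tumors 23 and 25 lay above all wild-type arrays and tumor 24 below replicate 4. The difference was 1.10 ± 0.47, with an interval from -0.03 to 2.23 and an adjusted p of 0.20. It was 0.70 without tumor 25 and 0.48 after housekeeping centring. Its neighbour Hspe1, which encodes the co-chaperonin HSP10 and is transcribed from the shared promoter region in the opposite direction, measured 9.14, 8.89 and 9.04 in wild-type cells and 9.58, 8.74 and 9.05 in tumors, a difference of 0.10 ± 0.25 that turned to -0.13 without tumor 23. Hspe1 was named after its values were seen, and the difference between the 2 genes was not tested. Mitotic genes were higher in tumors beside Hsph1 and Hspd1. Of 14 measured, 4 rose (28.6%, against 2.52% of all genes) and none fell. Their mean stood at 6.35, 5.37 and 7.16 for tumors 23, 24 and 25 and between 3.86 and 4.62 for the wild-type samples, and their part was not tested.

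**Figure D3:**
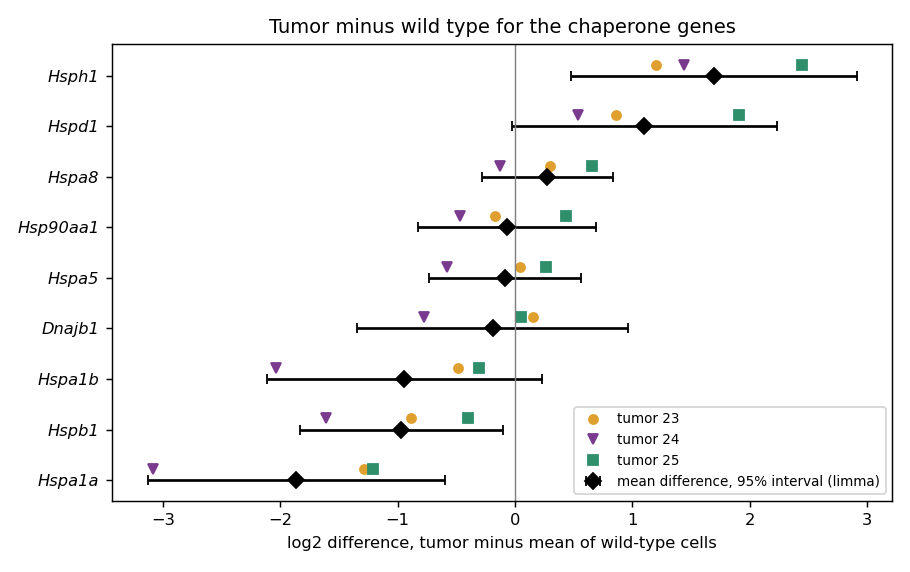
Log2 difference from the mean of the wild-type cells for each of the 9 measured chaperone genes: the mean over 3 tumors with limma's 95% interval (diamonds and bars) and each tumor alone (coloured symbols). The intervals of Hspa1a, Hspb1 and Hsph1 leave out 0, none of the 9 genes passed after adjustment over all genes, and tumor 24 is the lowest tumor for 8 of them.

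Within a group, the same array was the highest for all or nearly all of these genes. Wild-type replicate 4 was the highest wild-type array for 9 of 9 genes, where it was so for 32.9% of all genes and for 40.1% of genes with a mean of at least 5. Its lead over replicate 1 was small for Dnajb1 (7.15 against 7.13) and Hspa1b (9.16 against 9.13). The lowest wild-type array was replicate 2 for 6 genes and replicate 1 for 3, against 44.6% and 32.4% of genes with a mean of at least 5. Tumor 25 was the highest tumor for 8 of 9 and tumor 24 the lowest for 8 of 9, against 45.3% and 49.1% of genes with a mean of at least 5. Replicate 4 was still the highest for 7 genes after cyclic loess and for 6 after housekeeping centring, and tumor 24 the lowest for 8 and 5. The differences of the 9 genes are therefore not separate measurements of the groups. The range within a group reached 1.88 in tumors (Hspa1a) and 1.58 in wild-type cells (Hsph1), and was 0.11 for Hspa8 in wild-type cells.

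Beyond these genes, 127 of 136 listed genes of the wider chaperone network were measured, and 4 passed, 2 higher and 2 lower in tumors. This is 3.15%, against 3.91% of all genes. Htra2, a protease of the mitochondrial intermembrane space, rose by 2.36 ± 0.27 (SE, n = 3 and 3), from 6.74, 6.57 and 5.84 in wild-type cells to 8.66, 8.87 and 8.71 in tumors, with an adjusted p of 0.015. Pdrg1, a prefoldin-like subunit, rose by 1.70 ± 0.23, from 5.68, 5.90 and 5.92 to 7.70, 7.11 and 7.78 (adjusted p of 0.021). Dnajc12, a J-domain protein that assists the aromatic amino acid hydroxylases, fell by 2.29 ± 0.37, from 6.82, 7.75 and 7.59 to 5.59, 4.49 and 5.22 (adjusted p of 0.032). Chac1, a glutathione-degrading enzyme induced by Atf4, fell by 1.98 ± 0.27, from 5.98, 6.28 and 6.22 to 4.65, 3.70 and 4.20 (adjusted p of 0.022). None of these 4 genes overlapped between the groups, as 36.4% of all genes did not, and the test had picked them on the same arrays. All 4 passed under the 3 other scalings. With 1 array left out, Htra2 passed in 5 of 6 sets (not without tumor 23), Chac1 without tumor 23 and without tumor 24, and Pdrg1 and Dnajc12 without tumor 24 only. The number of network genes that passed was 13 without tumor 24 and 1 without any other array.

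Among the 20 measured co-chaperones of HSP90 and HSP70 none passed, and 14 had higher means in tumors (4 after housekeeping centring). Ahsa1, which activates the HSP90 ATPase, was 1.25 ± 0.44 higher and Stip1, which links HSP70 to HSP90, 1.25 ± 0.47 higher, at adjusted p of 0.14 and 0.16. Bag3, an HSP70 exchange factor of the stress response named after its values were seen, lay on the other side at -1.11 ± 0.34, with an adjusted p of 0.12. Of 9 further HSP70 and HSP110 genes none passed. Hspa9, the mitochondrial HSP70, was 1.41 ± 0.57 higher and Hspa4l 0.83 ± 0.35 higher. All 13 measured chaperonin and prefoldin genes had higher means in tumors, with a median of 0.74, and only Pdrg1 passed. All 13 were still higher after quantile normalization again (median 0.61) and after cyclic loess (median 0.60). After housekeeping centring 8 of the 13 were higher, with a median of 0.12. Of the 22 J-domain genes 13 had higher means, with a median of 0.04, against 10 after quantile normalization again or cyclic loess and 4 after housekeeping centring. Of the 9 mitochondrial chaperones and proteases 8 had higher means, with a median of 0.47, against 5 after quantile normalization again or cyclic loess and 4 after housekeeping centring (median -0.15).

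Of 25 measured endoplasmic reticulum chaperones none passed, and 19 had higher means, with a median of 0.34 (7 after housekeeping centring, with a median of -0.28). Ero1a, the oxidase that recharges protein disulfide isomerase, was 2.83 ± 0.95 higher, although wild-type replicate 2 (2.61) lay under the background mark and far below replicates 1 (5.70) and 4 (6.44). Fkbp11, a prolyl isomerase, was 1.40 ± 0.85 higher. Of 17 genes of unfolded protein response signalling, Chac1 alone passed, with a median of -0.09 over the list. Of the heat shock factors, Hsf1 had no probe set of its own and was not analysed here, and Hsf2 measured 1.45 ± 0.37 higher (adjusted p of 0.082), from wild-type values that lay below that mark in each of the 3 wild-type samples. Hsf4 differed by -0.18 ± 0.20.

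Of 8 measured small heat shock genes none passed with all arrays. Cryab, the alpha B crystallin that is abundant in muscle, measured 6.32, 6.33 and 6.90 in wild-type cells and 9.31, 6.22 and 9.01 in tumors. It was high in the tumors that also held skeletal muscle transcripts and lay at the wild-type level in tumor 24, and the difference of 1.67 ± 0.80 had an adjusted p of 0.23. Without tumor 24 Cryab passed, at 2.65 ± 0.27 with an adjusted p of 0.016, and without tumor 23 the difference was 1.10. Hspb8 was 0.69 ± 0.53 higher. The part of muscle tissue in these values was not tested. The network holds more bright genes, with 99 of 127 at a mean of at least 5 against 7726 of all 22180 genes. Shares of the network and of all genes are therefore not from like sets. Over the whole network 66.1% of genes had higher means in tumors against 41.7% of all genes, and the median was 0.31, close to the 0.32 of the brighter genes. These shares were 59.8% and 48.8% after quantile normalization again, and 63.8% and 53.1% after cyclic loess. After housekeeping centring they were 27.6% and 19.1%, so the direction of the network as a whole turned under that scaling only.

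**Figure D4:**
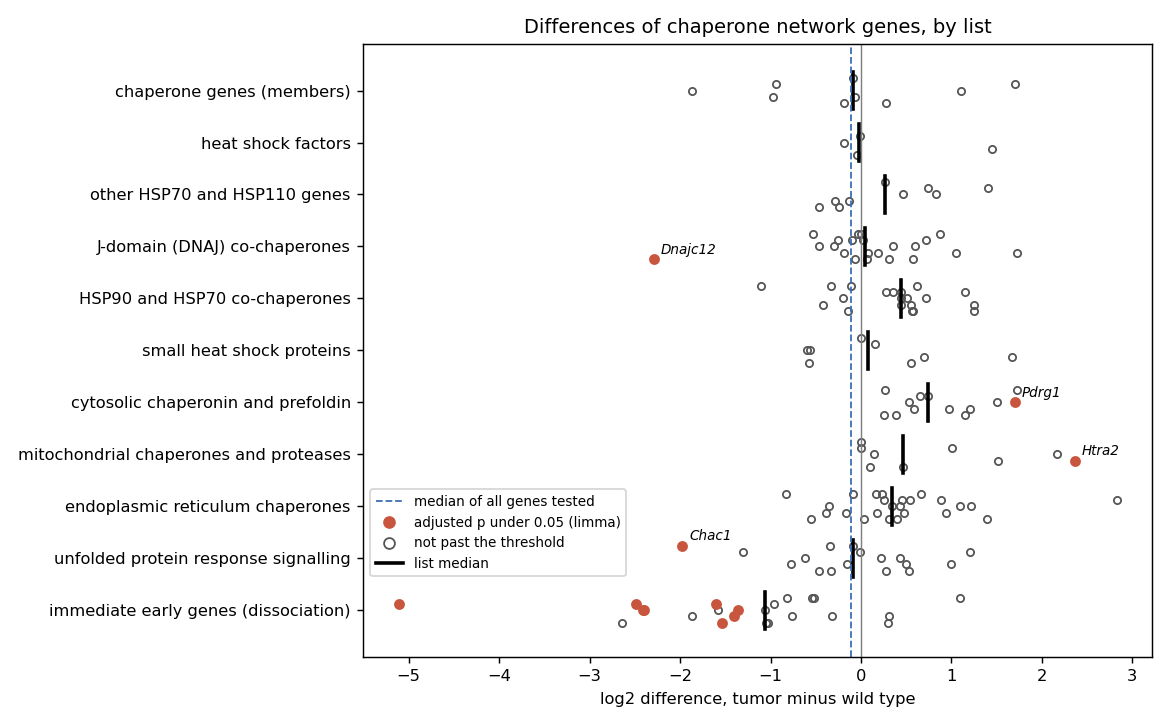
Log2 difference, tumor minus wild type, of every measured gene of the chaperone lists and of the immediate early genes (points, 1 per gene), with each list's median (black bars) and the median of all genes tested (dashed line). Filled points passed limma's test: Htra2 and Pdrg1 to the right, Dnajc12 and Chac1 to the left, 8 immediate early genes to the left, and none of the 9 measured chaperone genes at the top.

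Immediate early genes, which dissociation also induces, were set beside the chaperones because only the wild-type cells were sorted. Of 23 measured, 8 fell in tumors and none rose, which is 34.8% against 3.91% of all genes, and the median was -1.06. Fosb, an AP-1 subunit, fell by 5.10 ± 0.38 (SE, n = 3 and 3), the transcription factor Klf6 by 2.49 ± 0.24, the AP-1 subunit Fos by 2.41 ± 0.21 and the mRNA decay factor Zfp36 by 2.40 ± 0.35, with adjusted p of 0.0063 to 0.025. Fosb, Klf6 and Fos passed without any 1 array, and Zfp36 without tumor 24 only. The list mean was 6.73, 6.91 and 7.14 in wild-type replicates 1, 2 and 4 and 5.77, 5.35 and 5.78 in tumors 23, 24 and 25, so the groups did not overlap. Tumor 24, with the lowest immediate early mean of the tumors, was also the lowest tumor for 8 of the 9 chaperone genes, and for 49.1% of the brighter genes. That place was not particular to immediate early genes. Tumor 24 also had the lowest tumor mean for housekeeping genes (8.09, against 8.68 in tumor 25) and mitotic genes (5.37, against 7.16). For fibroblast markers it had the highest (6.38, against 5.03). Wild-type replicate 4, with the highest immediate early mean, was the highest wild-type array for 9 chaperone genes and for 40.1% of the brighter genes. At the low end the wild-type arrays differed. Replicate 1 had the lowest immediate early mean but was the lowest for only 3 chaperone genes, and replicate 2 was the lowest for 6. Whether sorting had a part in any of these values was not tested, since sorting and group cannot be told apart here.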

How the data were processed

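The table holds 41345 probe sets measured on 6 arrays. Per the submitters' processing notes the authors made these log2 values with RMA (background correction, quantile normalization, summary of probes) and oligo, versions not stated there. RMA compresses differences near background. Per the labels, RNA was amplified with a NuGEN kit. Platform annotation named 1 gene for 23521 probe sets, several for 1814 and none for 16010, and 23328 of the 23521 matched a RefSeq gene (GRCm38.p6) by Entrez identifier. The brightest probe set stood for each of 22180 genes.

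Tumors were compared with wild-type cells in limma 3.58.1 (R 4.3.3, lmFit and eBayes, two-sided, no covariate, all genes), which was tested on simulated data. Adjusted p-values of genes come from limma after Benjamini-Hochberg adjustment over all genes. The members and the gene lists were chosen with earlier results of these data known. Named were all members, up to 4 called genes of each list with the largest differences, or 2 where none was called, up to 3 markers of a cell type, and the 3 genes most alike in pattern to each member. No scanner files, detection calls or scan dates were used, so no batch was tested. Arrays give no read depth, and their number limits the precision. Alternatives changed the probe set rule, the filter on dim genes, the scaling, the prior, array weights and the arrays included. Erythroid markers had no probe set of their own and were not analysed here.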

Additional observations from a re-analysis of the deposited data

How the results depend on the processing

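With 3 arrays a group, the precision is limited by the number of arrays, and none of the 9 chaperone genes passed under 13 of the 15 alternatives set out for the processing. When only genes with a mean of at least 5 were tested 1 of them passed (Hspa1a), and after housekeeping centring 3 did (Hspa1a, Hspa1b and Hspb1, all lower). That centring evens out the mean of the housekeeping genes, which was 7.67 to 7.97 on wild-type arrays and 8.09 to 8.68 on tumor arrays. With it the all-gene median went from -0.12 to -0.74 and the share of higher calls from 64.5% to 7.28%. It gave 7523 calls over all genes, 23 in the chaperone network and 19 among immediate early genes. Quantile normalization again and cyclic loess left 55.7% and 60.7% of calls higher. Array weights gave 1324 calls over all genes and 8 in the network. In the network, 9 genes passed when means under 5 were dropped and 8 when means under the median were, against 4. With 1 array left out, calls ran from 72 to 1200 over all genes, from 1 to 13 in the network and from 3 to 6 among immediate early genes, against 867, 4 and 8, and stayed at 0 for the chaperone genes. Tumor 24 alone, chosen after seeing the data because tumors 23 and 25 hold muscle transcripts, gave 0 calls in limma in each set (at an unadjusted p under 0.05, 3588 of all genes, 16 of the network, 15 immediate early genes and 3 of the chaperone genes). The lone tumor is assumed there to vary like the other group.

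Hspa1a, Hspa1b, Hspb1, Hsph1 and Hspd1 kept their direction under all 16 alternatives. Hspa8 reversed with the mean of its probe sets (-0.76), after housekeeping centring (-0.34) and with tumor 24 alone (-0.13). With 1 array left out, Hspa5 ran from -0.27 to 0.16, Hsp90aa1 from -0.32 to 0.17 and Dnajb1 from -0.70 to 0.10. No paired analysis was possible because the groups share no replicate numbers.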

Other observations

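The genes most alike in pattern to each chaperone gene, by Pearson's r over the 6 arrays among 22180 genes, are given as a description, since any gene set this large holds close matches over 6 points that share the same arrays. For Hspa1a they were Lsr, a tight junction receptor of epithelial cells (0.993), Foxr2 (0.989) and Ddx28 (0.987). Lsr measured 9.38, 9.35 and 9.70 in wild-type cells and 8.59, 7.53 and 8.55 in tumors, whereas Foxr2 stayed under the background mark on all arrays. For Hsph1 they were Mybbp1a (0.996), Sae1, a subunit of the SUMO-activating enzyme (0.996), and Ube4a, a ubiquitin chain assembly factor (0.995). For Hspd1 they were Sprtn (0.997), the ubiquitin ligase scaffold Cul3 (0.997) and Pnpla8 (0.997). The nearest gene was Fndc4 for Hspa1b (0.988), Mvd and Larp7 after the olfactory receptor gene Olfr1170 for Hspa8 (0.993, 0.993 and 0.995), Chmp4c for Hspb1 (0.994) and Saal1 for Dnajb1 (0.990). For Hspa5 and Hsp90aa1 the nearest, Olfr1440 (0.984) and Cypt4 (0.993), lay under the background mark on all arrays.

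Among the members themselves, r over the 6 arrays was 0.95 for Hspa1a with Hspa1b, 0.93 for Hspa1a with Hspb1 and 0.97 for Hsph1 with Hspd1. It was -0.51 for Hspa1a with Hsph1. These values hold the difference between the groups as well as the spread within them.

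Probe sets that name a member together with another gene were left out of all comparisons. The one for Hspa1a and Hspa1b jointly measured 3.06 ± 0.18 in wild-type cells and 2.48 ± 0.11 in tumors (SD, n = 3), under the background mark on all arrays. The one for Hspa8 and Snord14e, a small nucleolar RNA gene, measured 9.94, 9.58 and 9.27 in wild-type cells and 9.70, 10.51 and 7.81 in tumors, with tumors 24 and 25 in the opposite order to that of the brightest Hspa8 probe set.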
